A study of Homo sapiens and Mus musculus with 19 samples.

Results

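The chromatin-associated RNA (caRNA) of control mouse embryonic stem cells (mESC) was set beside that of control K562 cells, gene by gene, across orthologues. The members were pairs of protein-coding genes, 1 mouse and 1 human, whose symbols matched once written in capitals and occurred once in each GENCODE annotation. This gave 15723 pairs, 71.7% of 21918 mouse and 79.3% of 19831 human protein-coding genes, and 6 of the 19 libraries of the series were compared. In 162 pairs no library held a count, which left 15561 pairs for testing.

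The mESC group (siControl, 3 libraries) came from mouse cells labelled as embryo-derived, lipofected with a control siRNA and grown in DMEM with 15% serum, LIF, 3 μM CHIR99021 (a GSK3 inhibitor) and 1 μM PD0325901 (a MEK inhibitor), after passages on gelatin to remove feeder cells. The K562 group (TET2WT shControl, 3 libraries) came from a human leukaemia line with TET2 intact, carrying a control shRNA and grown in RPMI-1640 with 10% FBS and 1 μg/mL puromycin. In both, cells and then nuclei were lysed in buffers holding NP-40, and the RNA left with chromatin was sequenced. The study tuned the NP-40 concentration for each line, without naming the step. Species, cell type, culture medium, knockdown reagent, fractionation and batch changed together between these groups and cannot be told apart. The study describes its genome-wide data as coming from 3 biological replicates, and the labels do not say what separated them, so p-values measure only the spread between these libraries.

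The counts on genes ran from 62989044 to 66832780 per mESC library and from 70394621 to 102070223 per K562 library. The level of a gene below is its count per kb of gene span (introns included) in CPM, the read counts scaled to a common library size by the trimmed mean of M-values (TMM), and the log2 difference is mESC minus K562. A pair was called where the edgeR quasi-likelihood test gave a Benjamini-Hochberg adjusted p under 0.05 and the fold was at least 4. Spans lay within 2-fold of each other in 85.4% of pairs, and 6476 pairs had another gene on the same strand overlapping in at least 1 annotation, where reads may have been set aside in counting. The 7995 tested pairs with neither problem are called comparable pairs.

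caRNA is rich in unspliced transcripts, so its level follows transcription and retention at the gene more closely than a cytoplasmic mRNA level does. Mouse embryonic stem cells are held in the naive pluripotent state by a circuit of transcription factors around Oct4, Sox2 and Nanog, fed by LIF and by inhibition of MEK and GSK3. K562 cells descend from a chronic myeloid leukaemia in blast crisis, carry the BCR-ABL1 fusion kinase, and express an erythroid and megakaryocytic programme built on GATA1, TAL1, LMO2 and KLF1.

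To show what a symbol pair is, the first 60 coding bases are given for 3 transcription factors on which the identity results below turn, TFCP2L1 of the naive pluripotency circuit and TAL1 and NFE2 of the blood programme. Bases that differ between the species are in capitals. The sequences were read from the GENCODE transcripts (M21 on GRCm38 and v44 on GRCh38) and start at the ATG.
TFCP2L1 mouse, chr1:118628041-118628100, plus strand: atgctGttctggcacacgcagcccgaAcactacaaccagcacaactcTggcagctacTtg
TFCP2L1 human, chr2:121285050-121285109, minus strand: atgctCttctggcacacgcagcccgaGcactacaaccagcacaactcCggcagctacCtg
TAL1 mouse, chr4:115063131-115063190, plus strand: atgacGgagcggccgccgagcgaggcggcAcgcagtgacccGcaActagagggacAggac
TAL1 human, chr1:47225829-47225888, minus strand: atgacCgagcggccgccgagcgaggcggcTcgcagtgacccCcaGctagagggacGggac
NFE2 mouse, chr15:103250983-103251042, minus strand: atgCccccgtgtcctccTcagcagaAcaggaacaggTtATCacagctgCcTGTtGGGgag
NFE2 human, chr12:54295189-54295248, minus strand: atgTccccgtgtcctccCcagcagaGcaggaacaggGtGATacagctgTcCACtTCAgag
In these stretches 4, 5 and 14 bases differed for TFCP2L1, TAL1 and NFE2. Over all pairs, the coding sequences were reciprocal best BLAST hits in 15216 (96.8%), with a median identity of 85.7% (interquartile range 81.7 to 88.9%), and 193 pairs gave no hit.

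The lines differed at a large part of the paired genome. At the adjusted p alone 13188 of 15561 pairs (84.8%) differed, and with the 4-fold threshold 6295 (40.5%) were called. Of these, 4138 (26.6% of tested pairs) were higher in mESC and 2157 (13.9%) were higher in K562, so 65.7% of the calls were towards mESC. That balance turned round once a level of at least 1 in the higher line was asked for, an alternative chosen after seeing the data. With that requirement 963 pairs (6.19%) were higher in mESC and 1525 (9.8%) in K562, so 38.7% of the calls were towards mESC. Among comparable pairs 1905 (23.8%) and 1073 (13.4%) were called, and 323 and 796 at that level. Among the 9218 tested pairs without overlap, 400 (4.34%) and 897 (9.73%) were called at that level. The other calls, 3175 towards mESC and 632 towards K562, were of pairs under a level of 1 in both lines. The median log2 difference of all pairs was 0.35, and it was 0.61 where levels were scaled by total counts instead. Counts of called members in the lists below stand against the shares of 26.6% and 13.9% over all pairs.

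The floor of silent genes differed between the groups. A list of genes of other tissues, such as ALB of the liver, gave 21 low pairs without overlap, and their median level was 0.0343, 0.0442 and 0.0522 in the mESC libraries and 0.00586, 0.0091 and 0.0104 in the K562 libraries. Every mESC siControl library thus had a higher floor than every K562 TET2WT shControl library. In the single Pspc1 WT library of mESC such genes went both ways. ALB had a level of 0.00249 and AQP2, a water channel of the kidney, 0.00237, against 0.0137 ± 0.00375 and 0.013 ± 0.0057 in siControl. AHSG had 0.132 there, against 0.0655 ± 0.0164 in siControl. The median floor of that library was not computed. Within a species such levels also shifted with the group. In mESC with Nsun2 knocked down (siNsun2) the means of ALB, AQP2 and AHSG were 0.0364, 0.0496 and 0.117, above siControl. In K562 TET2WT cells with MBD6 knocked down they were 0.0121, 0.0636 and 0.048, against 0.00533, 0.0141 and 0.0139 in TET2WT shControl. With TET2 knocked out (TET2KO shControl) they went both ways, at 0.0264, 0.00355 and 0.00423. Species and library cannot be told apart here, and beyond the level requirement above the part of this floor in the calls was not tested. Of the 28 tested pairs of the whole list, 11 were called higher in mESC and 1 in K562, with a median log2 difference of 1.61, and 26 were under a level of 1 in both lines. A median near that value, in a list of low genes, is therefore what silent genes gave here.

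Over all pairs, ranks were alike between the lines in broad strokes, but much less so among expressed pairs. Spearman's rho of the mean levels across the 15561 pairs was 0.637, against 0.987 to 0.988 between mESC libraries and 0.974 to 0.978 between K562 libraries, and pairs without overlap gave 0.717. These are correlations across genes, which are not independent replicates and share library depth and gene length, so no p is given. Among the pairs at a level of at least 1 in all 6 libraries, rho was 0.34. Among the 7864 pairs with a mean of at least 1 in either line it was 0.136. The median pair sat 13 percentile points apart between the lines, 41.4% of pairs sat within 10 points, and 923 (5.93%) sat more than 50 points apart.

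Sorted by level, 4148 pairs were at 1 or above in all 6 libraries, which is 75.4% of the 5504 expressed in mESC and 65.4% of the 6342 expressed in K562. A further 3705 pairs (23.8%) were under 0.1 in all 6. In 533 pairs the mESC libraries were all at 1 or above and the K562 libraries all under 0.1, and in 373 the reverse held. Among pairs without overlap these counts were 189 and 155. Of the 4342 pairs with a mean of at least 1 in both lines, 2926 lay within 2-fold of each other.

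**Figure D1:**
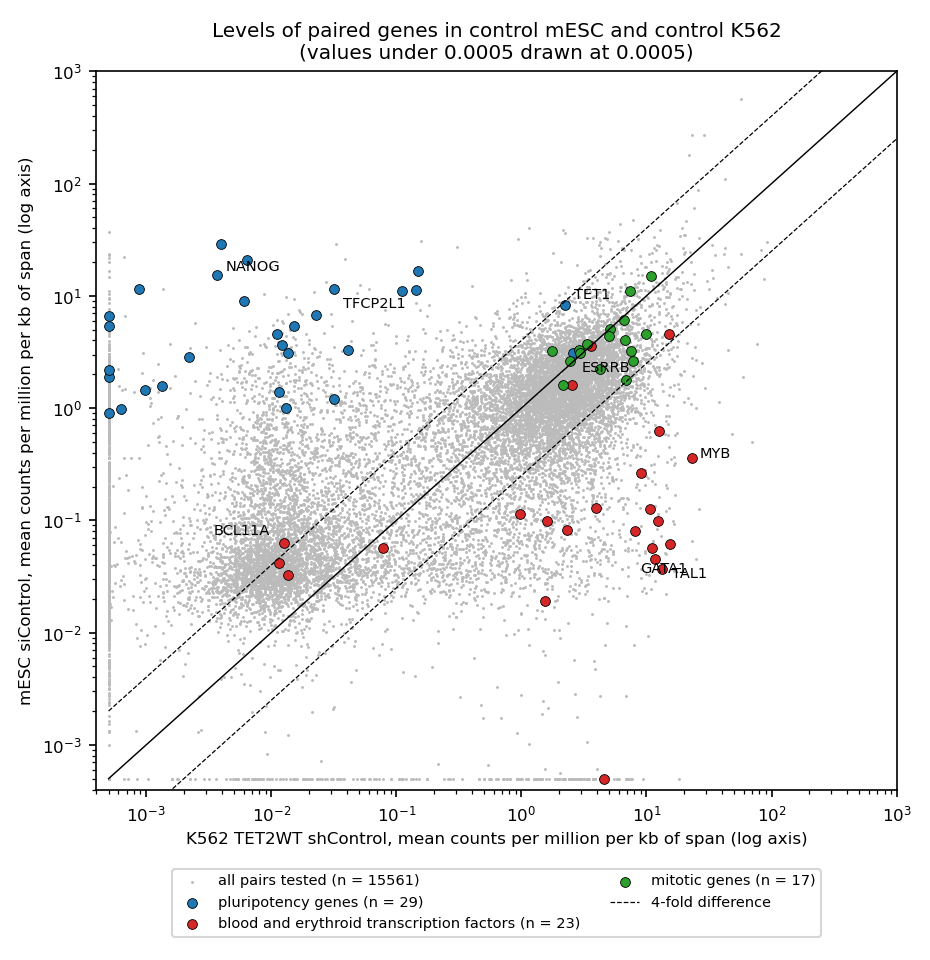
Mean level of each of the 15561 tested pairs in mESC (vertical axis) against K562 (horizontal axis), in CPM per kb of span on log axes, with equality as a solid line and 4-fold as dashed lines. The pluripotency genes (blue, n = 29) lie above the lines apart from TET1 and ESRRB, most blood transcription factors (red, n = 23) lie below them, and the mitotic genes (green, n = 17) lie between them.

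The pluripotency genes were almost all higher in mESC. Of 29 tested pairs, 27 were called higher in mESC and 0 in K562, against 26.6% and 13.9% of all pairs, and of 20 comparable pairs 19 were called. The median log2 difference was 8.55, or 8.45 with pairs at 0 in K562 held at their lower bound. The levels of the list summed to between 199 and 205 in the mESC libraries and to between 5.39 and 5.62 in the K562 libraries.

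NANOG, a homeodomain factor of the core circuit (mouse chr6:122707489-122714633, GRCm38, human chr12:7787794-7799146, GRCh38), had levels of 15.2, 15.5 and 15 in mESC and 0.00967, 0.00134 and 0 in K562, where 6 counts fell on it in all. It stood at percentile 99.3 of the mESC levels and 8.41 of the K562 levels, with a log2 difference of 12.19 ± 0.16 (SE, adjusted p = 3.62e-16). ZFP42 (Rex1), a zinc-finger marker of naive cells, had levels of 21.3, 20.4 and 21.1 in mESC and 0.0142, 0.00164 and 0.00341 in K562. In both pairs the mESC and K562 libraries were far from overlapping. TFCP2L1, whose start is shown above, had levels of 11.5, 11.5 and 11.3 in mESC and 0.047, 0.0245 and 0.0242 in K562 (log2 difference 8.55 ± 0.11, adjusted p = 3.81e-14). The mouse Tfcp2l1 gene overlaps another gene on its strand.

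The Krüppel-like factors, which bind together at pluripotency enhancers, were high together in mESC. KLF2 had a mean level of 16.5 ± 0.313 (SD, n = 3, as for each mean below) in mESC and 0.15 ± 0.0169 in K562. KLF4 had 11.2 ± 0.626 and 0.143 ± 0.0696, and KLF5 had 11.1 ± 0.216 and 0.11 ± 0.0236. All 3 were called. TRIM71, an RNA-binding protein of stem cells, had 5.36 ± 0.162 in mESC and 0.0153 ± 0.00215 in K562 (log2 difference 8.45 ± 0.06). SALL4, a zinc-finger factor of stem cells, had 2.87 ± 0.0573 and 0.00218 ± 0.00219. MYCN, the Myc family member of early embryos, had levels of 2.36, 2.02 and 2.16 in mESC and no count in K562, at least 818-fold lower with 3 counts over the group as the floor.

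ESRRB and TET1 were the members not called. ESRRB, an orphan nuclear receptor that helps to hold the naive state, had levels of 3.17, 3.07 and 3.06 in mESC and 2.73, 2.52 and 2.51 in K562 (log2 difference 0.26 ± 0.03, adjusted p = 4.33e-06). Every mESC library was above every K562 library, by far less than in the other members. POU5F1 (Oct4) had levels of 7.13, 6.31 and 6.26 in mESC and no count in K562, and LEFTY1, a Nodal antagonist, had 5.92, 5.24 and 4.91 and no count. Both human genes overlap a neighbour on the same strand, and their annotated spans are 16.4 and 25.1 kb against 4.75 and 3.38 kb in mouse, so their counts of 0 in K562 are uncertain. SOX2 had no count in any library and lies within a same-strand gene in both annotations, so it was not tested.

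Of 18 tested genes of the LIF, FGF and Nodal pathways, 6 were called higher in mESC and 3 in K562, with a median log2 difference of 0.26 (10 comparable pairs, 2 and 3 called), against 26.6% and 13.9% of all pairs. Among the receptors, LIFR had 1.35 ± 0.0207 in mESC and 0.0448 ± 0.00615 in K562, and FGFR1 had 2.18 ± 0.0846 and 0.0166 ± 0.01. Both were called, whereas IL6ST, the signalling partner of LIFR, had 4.77 ± 0.106 and 2.1 ± 0.0355 (log2 difference 1.18 ± 0.03) and was not. The ligand NODAL had 3.17 ± 0.0919 and 0.0136 ± 0.0127. STAT3, which LIF activates, had 2.22 ± 0.0577 and 3.35 ± 0.0878 and was not called.

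Feedback inhibitors of receptor kinases went opposite ways. SPRY2 had levels of 6.6, 6.56 and 6.11 in mESC and 0.959, 0.794 and 0.696 in K562, and SPRY4 had 0.239, 0.226 and 0.22 and 5.55, 5.0 and 5.4. The lines did not overlap for either. ID1, a target of BMP signalling, had levels of 0.465, 0.422 and 0.211 in mESC and 20.8, 13.2 and 15.9 in K562 (log2 difference -5.50 ± 0.26, adjusted p = 4.09e-10).

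The blood transcription factors showed the opposite pattern. Of 23 tested pairs, 16 were called higher in K562 and 1 in mESC, against 13.9% and 26.6% of all pairs. The median log2 difference was -4.93 (14 comparable pairs, 10 and 1 called). TAL1, a basic helix-loop-helix factor needed for blood formation, had levels of 0.0333, 0.0319 and 0.0448 in mESC and 13.7, 13.1 and 12.9 in K562 (log2 difference -8.49 ± 0.08, adjusted p = 2.01e-17). It stood at percentile 16.6 of the mESC levels and 98.9 of the K562 levels. NFE2, a leucine-zipper factor of erythroid and megakaryocytic genes, had 0.0648, 0.0759 and 0.0449 in mESC and 15.7, 14.6 and 15.7 in K562 (log2 difference -7.95 ± 0.10, adjusted p = 3.26e-16). For both genes whose starts are shown above, the mESC levels were near the floor and the K562 levels among the highest.

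GATA1, the defining erythroid zinc-finger factor, had levels of 0.0622, 0.0445 and 0.0649 in mESC and 11.9, 10.8 and 10.5 in K562 (log2 difference -7.59 ± 0.12, adjusted p = 1.55e-15). MYB, which keeps progenitors dividing, had 0.403, 0.344 and 0.334 in mESC and 22.8, 23.3 and 23.1 in K562. Both were separated by far more than the spread between libraries, although the GATA1 spans were 18.8 kb in mouse and 7.77 kb in human. KLF1, the erythroid Krüppel-like factor, had 0.125 ± 0.0218 in mESC and 10.7 ± 0.354 in K562.

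The partners of TAL1 in its DNA-binding complex differed in size of effect. LMO2, the LIM-only subunit, had 0.0451 ± 0.014 in mESC and 11.7 ± 0.114 in K562 (log2 difference -8.01 ± 0.08). LYL1, a close relative of TAL1, had 0.0989 ± 0.00261 and 12.3 ± 0.216. LDB1, the bridging subunit used in many tissues, had 4.6 ± 0.0879 and 15.1 ± 0.207 (log2 difference -1.72 ± 0.03), under the fold threshold. ZFPM1 (FOG1), the cofactor of GATA1, had 4.56 ± 0.398 in K562 and no count in mESC, but overlaps a neighbour in both annotations.

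BCL11A, a repressor of fetal globin genes, was the member called towards mESC, at 0.0629 ± 0.00673 in mESC and 0.0127 ± 0.00391 in K562, low in both. FLI1 and ERG, ETS factors of megakaryocytes and stem cells, had 0.0415 ± 0.00569 and 0.0325 ± 0.00185 in mESC and 0.0115 ± 0.00558 and 0.0136 ± 0.00257 in K562 and were not called. ZBTB7A, a repressor used in many tissues, had 3.56 ± 0.178 and 3.62 ± 0.151 and was not called. These levels sat on the floor for FLI1 and ERG and well above it for ZBTB7A.

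**Figure D2:**
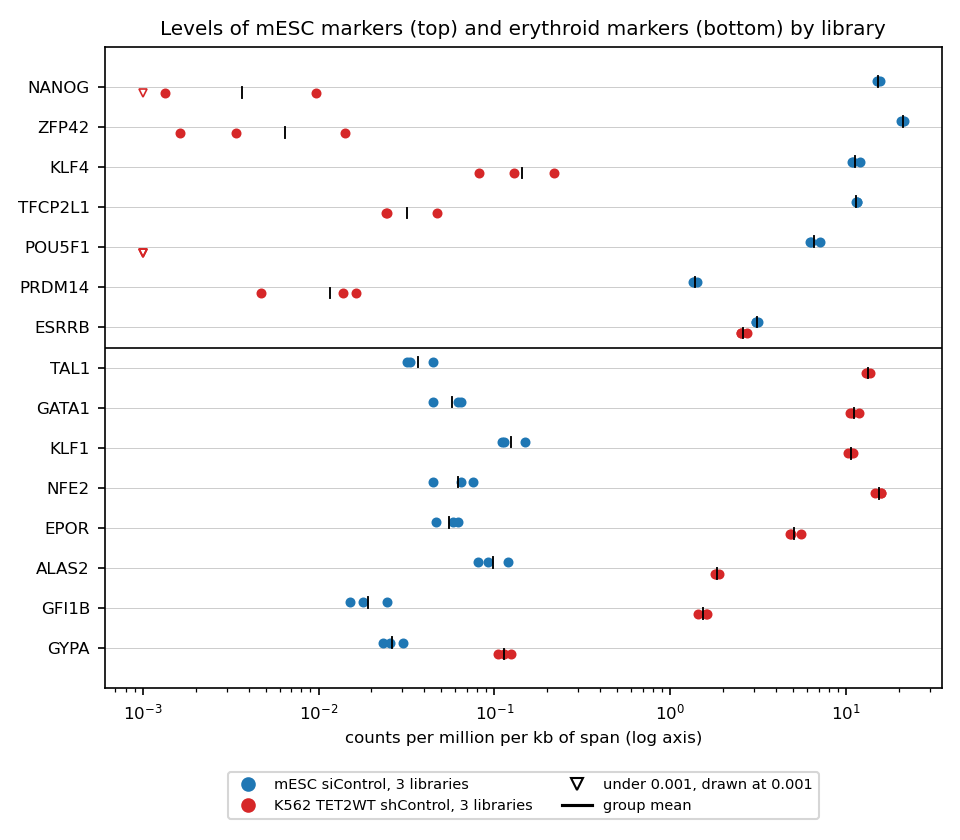
Level of each gene in each of the 6 libraries (points, CPM per kb of span, log axis; open triangles are values under 0.001) for pluripotency markers (top) and erythroid markers (bottom), with the group mean as a black tick. The NANOG points sit between 15 and 15.5 in mESC and at or under 0.00967 in K562, the TAL1 points sit at 12.9 to 13.7 in K562 and at or under 0.0448 in mESC, and the ESRRB points of the lines lie side by side.

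The genes of haem synthesis and iron handling were higher in K562 in part. Of 19 tested pairs, 11 were called higher in K562 and 1 in mESC, against 13.9% and 26.6% of all pairs. The median log2 difference was -2.15 (13 comparable pairs, 8 and 1 called). UROD, the uroporphyrinogen decarboxylase, had levels of 1.13, 1.06 and 1.21 in mESC and 40.5, 37.8 and 36.8 in K562 (log2 difference -5.08 ± 0.06, adjusted p = 2.75e-16). ALAS2, the erythroid form of the first enzyme of the pathway, had 0.0975 ± 0.0202 and 1.83 ± 0.0485. Both were called. FECH, which inserts the iron, had 0.904 ± 0.0062 and 2.21 ± 0.0654 and missed the fold threshold.

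TFRC, the transferrin receptor, was close between the lines at 12.4 ± 0.444 in mESC and 13.2 ± 0.119 in K562, although its human span is 69.6 kb and its mouse span 23.9 kb. HMOX1, which breaks haem down, went the other way, with levels of 2.67, 2.48 and 2.71 in mESC and 0.00159, 0.00991 and 0.00342 in K562 (log2 difference 8.88 ± 0.24, adjusted p = 5.74e-13). Its K562 levels were at the floor of silent genes.

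Red-cell membrane and surface genes gave 16 of 21 called higher in K562 and 2 in mESC, against 13.9% and 26.6% of all pairs. The median log2 difference was -3.93 (8 comparable pairs, 7 and 0 called). TMOD1, which caps actin filaments of the membrane skeleton, had levels of 0.0286, 0.0305 and 0.0253 in mESC and 3.04, 2.97 and 2.92 in K562 (log2 difference -6.72 ± 0.06, adjusted p = 7.97e-18). SLC4A1 (band 3), a late marker, had 0.0483, 0.0445 and 0.0465 in mESC and 0.431, 0.449 and 0.505 in K562, called but under a level of 1 (log2 difference -3.31, and -0.54 with the TET2KO libraries). SLC2A1, the glucose transporter GLUT1, had 7.86 ± 0.194 and 7.56 ± 0.232 and was not called. XK and CD36, the pairs called towards mESC, were low there (0.109 ± 0.00364 and 0.0266 ± 0.00386). The call of CD36 was lost with DESeq2 size factors, with no length correction (log2 difference 0.84 against 2.03) and without mESC replicate 2 or K562 replicate 2 or 3.

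The megakaryocyte and platelet list had no single direction. Of 18 tested pairs, 6 were called higher in mESC and 4 in K562, against 26.6% and 13.9% of all pairs. The median log2 difference was 1.17 (0.75 with bounds), and 15 of the 18 were under a level of 1 in both lines. TUBB1, the platelet tubulin, had 0.0167, 0.0374 and 0.0382 in mESC and 3.18, 2.65 and 2.79 in K562, and ITGA2B, the platelet integrin CD41, had 0.15 ± 0.022 and 3.7 ± 0.279. With the TET2KO shControl libraries TUBB1 was not called (log2 difference -1.86, against -6.54). THBS1, a secreted adhesion protein of platelets and other cells, was called towards mESC at 1.09 ± 0.0483 against 0.0101 ± 0.00928.

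Receptors and kinases of blood cells gave 12 of 23 called higher in K562 and 7 in mESC, against 13.9% and 26.6% of all pairs. The median log2 difference was -3.05, but 4 and 4 were called among 10 comparable pairs. STAT5A, a transcription factor downstream of cytokine receptors and BCR-ABL1, had 0.142, 0.156 and 0.134 in mESC and 8.22, 8.11 and 8.19 in K562 (log2 difference -5.83 ± 0.06, adjusted p = 2.89e-17). LCP2, an adaptor of immune receptors, had 0.0292 ± 0.00463 and 2.98 ± 0.0541. KIT, the stem cell factor receptor, was the reverse, with 3.57, 3.67 and 3.61 in mESC and 0.00684, 0.019 and 0.0214 in K562 (log2 difference 7.76 ± 0.13, adjusted p = 3.53e-13).

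For a few of these receptors the K562 level depended on which K562 libraries were read. The KIT level was 0.556 ± 0.0143 in the TET2KO shControl libraries (3, the same control shRNA in cells with TET2 knocked out), against 0.0157 ± 0.0078 in the TET2WT shControl libraries. PTPRC (CD45), the leukocyte phosphatase, had 0.0234 ± 0.00209 in mESC, 1.26 ± 0.036 in the TET2WT and 0.00127 ± 0.000488 in the TET2KO controls, so its log2 difference was -5.75 with the former and 4.22 with the latter. ARHGAP15, a GTPase-activating protein of leukocytes, had 0.0278 ± 0.00169 in mESC, 0.0081 ± 0.00209 in the TET2WT and 2.17 ± 0.0402 in the TET2KO controls. The 2 K562 control groups, which share no library, thus stood on opposite sides of mESC for PTPRC and ARHGAP15. For both genes the mESC level was under the median mESC floor of 0.0462. ARHGAP15 in TET2WT was under the K562 floor of 0.0108, and PTPRC in TET2KO was lower still. On that side of mESC low levels near the floor were compared, so it does not show a reversal of expression.

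Markers of other cells that the cultures could hold were mostly low in both lines. Of 16 feeder fibroblast markers, 11 were called higher in mESC and 0 in K562, against 26.6% and 13.9% of all pairs. Of these markers 14 were under a level of 1 in both lines, and the median log2 difference was 3.47. The list summed to between 30.3 and 31.7 in mESC and to between 0.498 and 0.549 in K562. FN1 (fibronectin) made up most of that sum, with levels of 28.3, 27.1 and 27.1 in mESC and 0.299, 0.304 and 0.31 in K562 (log2 difference 6.50 ± 0.03, adjusted p = 9e-20). Within mESC the fibroblast collagens were much lower than FN1, with COL1A1 at 0.999 ± 0.0303, COL1A2 at 0.272 ± 0.0228 and COL3A1 at 0.0793 ± 0.00911. In bulk RNA, fewer cells of a type and less RNA per cell cannot be told apart, and the part of feeder cells in these levels was not tested.

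Over all pairs, 26.6% were called higher in mESC and 13.9% in K562. The lymphoid list gave 8 of 18 higher in mESC and 3 in K562 (median log2 difference 1.87), with 18 under a level of 1 in both lines. The myeloid list gave 5 and 2 of 13 (median 2.45), with 12 under 1, and CD33, a myeloid surface lectin, was the member above it, at 0.0442 ± 0.0117 in mESC and 1.42 ± 0.0409 in K562. Early lineage markers gave 8 and 2 of 18 (median 1.02), with 15 under 1. PAX6, the eye and forebrain factor, had 0.0443, 0.0483 and 0.0386 in mESC and 2.63, 2.51 and 2.32 in K562, and TFAP2C, of trophoblast and germ cells, had 1.69 ± 0.16 and 0.00579 ± 0.00874. Germline genes gave 11 and 2 of 18 (median 2.56), with 14 under 1. STAG3, a meiotic cohesin subunit, had 1.26, 1.29 and 1.24 in mESC and 0.197, 0.18 and 0.151 in K562, and DDX4, the germ cell helicase, had 0.404 ± 0.0217 and 0.0146 ± 0.00188.

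**Figure D3:**
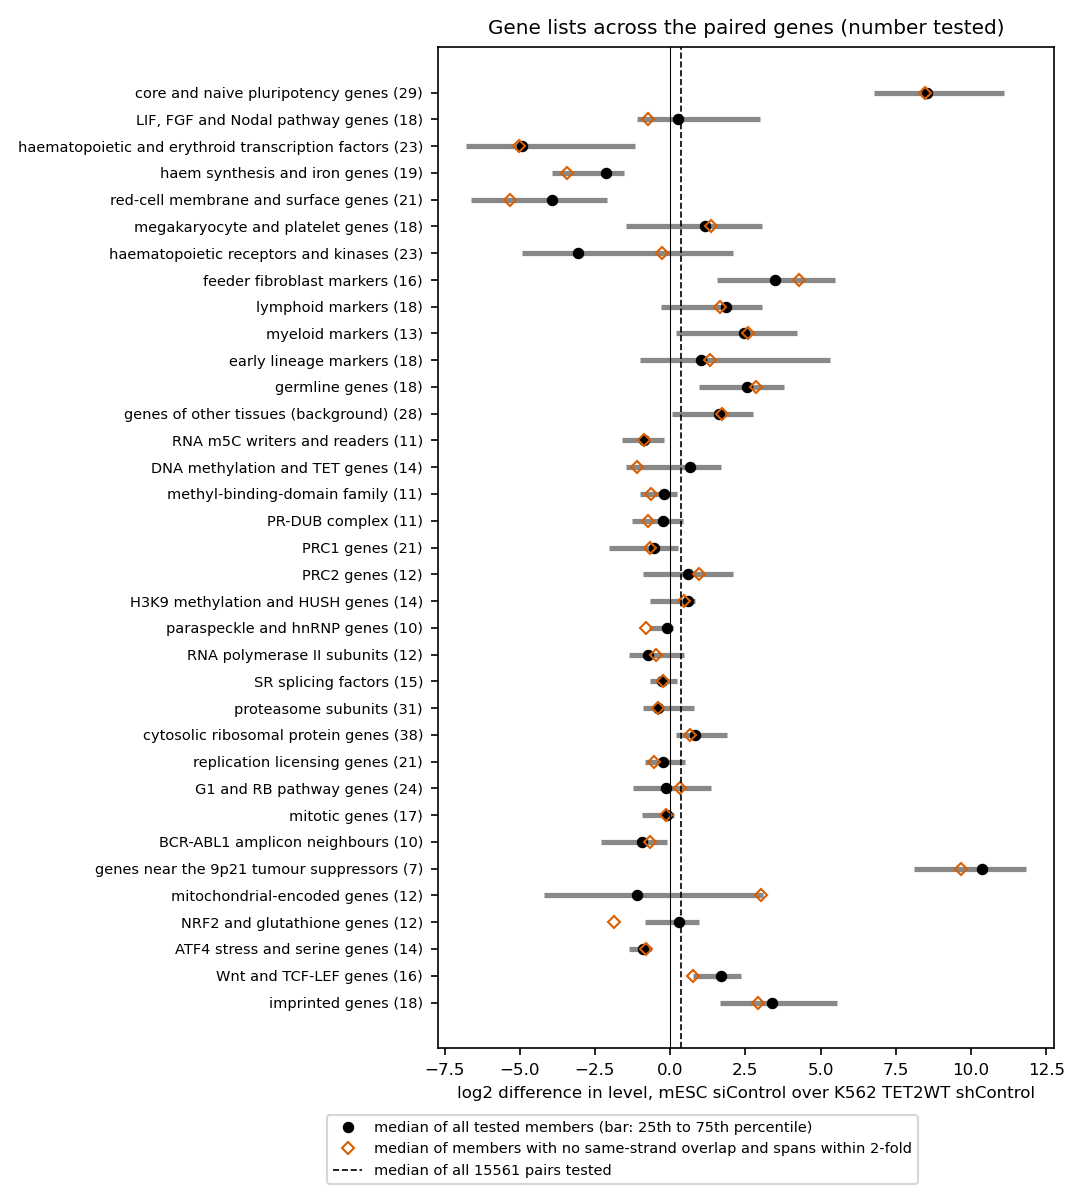
Median log2 difference in level (mESC over K562) of each gene list, with the number of tested pairs in brackets, as black points with bars from the 25th to the 75th percentile, and as open diamonds for comparable pairs. The dashed line is the median of all pairs at 0.35. The pluripotency list (8.55) and the 9p21 genes (10.36) lie farthest to the right and the blood factors (-4.93) farthest to the left.

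The machinery that the series perturbs was measured in both lines. Of 11 writers and readers of RNA 5-methylcytosine (m5C), 1 was called higher in mESC and 2 in K562, with a median log2 difference of -0.87. NSUN2, the m5C methyltransferase knocked down elsewhere in the series (mouse chr13:69533746-69635780, human chr5:6599239-6633291), had levels of 1.22, 1.16 and 1.18 in mESC and 5.25, 5.7 and 5.51 in K562 (log2 difference -2.21 ± 0.04, adjusted p = 6.29e-15). That call rested on the annotated span, 102 kb in mouse and 34.1 kb in human: the log2 difference was -0.63 with exon length and -0.30 with no length correction. NSUN4, the methyltransferase of the mitochondrial ribosome, had 1.08 ± 0.076 and 4.95 ± 0.153 (log2 difference -2.20 ± 0.06), a call lost with exon length (-1.97) and with total-count scaling (-1.94).

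The reader YBX1 had 13.3 ± 0.109 in mESC and 11.9 ± 0.541 in K562, and ALYREF had 3.52 ± 0.0608 and 5.22 ± 0.389. Neither was called. NOP2, the nucleolar methyltransferase, had 5.8 ± 0.147 in mESC and no count in K562, where the human gene overlaps a neighbour, so that 0 is uncertain.

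The TET dioxygenases, which oxidise 5-methylcytosine, differed from one another. TET2 (mouse chr3:133463679-133545139, human chr4:105145875-105279816) had levels of 5.07, 5.08 and 4.99 in mESC and 1.4, 1.45 and 1.46 in K562 (log2 difference 1.81 ± 0.03, adjusted p = 8.96e-16), under the fold threshold except with total-count scaling (2.07). TET1 had 8.2, 8.25 and 8.2 in mESC and 2.24, 2.28 and 2.22 in K562 (log2 difference 1.87 ± 0.02). TET3 was the reverse, with 0.259, 0.265 and 0.247 in mESC and 2.8, 2.79 and 2.84 in K562 (log2 difference -3.45 ± 0.04, adjusted p = 5.25e-17). The order of the levels was TET1, TET2 and TET3 in mESC and TET3, TET1 and TET2 in K562, with no overlap between neighbouring genes in either order. TET1 and TET3 overlap a same-strand gene in both annotations.

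Of 14 DNA methylation and TET genes, 2 were called higher in mESC and 3 in K562, with a median log2 difference of 0.67 (-1.12 over 7 comparable pairs). DNMT3L, the cofactor of de novo methylation in germ and stem cells, had 1.06, 1.01 and 0.951 in mESC and 0, 0.00769 and 0.0319 in K562. DNMT3B, a de novo methyltransferase, had 1.1 ± 0.0387 and 4.76 ± 0.283 (log2 difference -2.11 ± 0.05, -1.85 with total-count scaling). The maintenance enzyme DNMT1 had 4.55 ± 0.0897 and 3.76 ± 0.167 and was not called. IDH1, an isocitrate dehydrogenase that makes the cosubstrate of the TET enzymes, had 1.58 ± 0.0643 and 7.71 ± 0.098 (log2 difference -2.28 ± 0.04, -1.57 with exon length). UHRF1, the partner of DNMT1, had a log2 difference of 2.16 ± 0.04 on spans of 20.2 and 59.1 kb, and 0.94 with exon length. PSPC1, a paraspeckle protein studied in mESC in the series, had 7.48 ± 0.0861 and 2.97 ± 0.0544 and was not called.

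MBD6, a methyl-binding-domain protein knocked down in K562 in the series, had levels of 2.75, 2.55 and 2.61 in mESC and 7.28, 7.19 and 6.49 in K562 (log2 difference -1.41 ± 0.07, adjusted p = 2.22e-10), higher in every K562 library but under the fold threshold. It stood at percentile 87.2 of the mESC and 96 of the K562 levels. Of 11 genes of its family, 1 was called higher in mESC and 0 in K562, with a median log2 difference of -0.22. The call was MBD3, a NuRD subunit (log2 difference 2.27 ± 0.11 on spans of 7.01 and 19.3 kb, 1.14 with no length correction).

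PR-DUB is the complex through which BAP1 removes ubiquitin from histone H2A. It had 1 gene called higher in mESC and 2 in K562 of 11 (median log2 difference -0.23), against 26.6% and 13.9% of all pairs. OGT, the O-GlcNAc transferase bound to that complex, had 8.43, 8.43 and 8.55 in mESC and 42.2, 42.3 and 41.9 in K562 (log2 difference -2.31 ± 0.02, adjusted p = 8.69e-18), just under 4-fold with exon length (-1.93) and with no length correction (-1.94). The ASXL subunits differed: ASXL1 had 4.7 ± 0.0378 and 5.04 ± 0.041, ASXL2 had 5.46 ± 0.0658 and 3.3 ± 0.0197, and ASXL3 had 0.208 ± 0.00798 and 0.00823 ± 0.00388. ASXL3 was called, at a low level. BAP1 itself had 2.26 ± 0.0757 and 4.99 ± 0.212 and was not called.

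Polycomb repressive complex 1 (PRC1) places ubiquitin on H2A. Of 21 tested genes 3 were called higher in mESC and 6 in K562 (median log2 difference -0.55), a share near the 40.5% of all pairs. The catalytic subunit RNF2 had 1.88 ± 0.0581 in mESC and 2.21 ± 0.058 in K562 and was not called. PCGF2, a partner of RNF2, had levels of 5.08, 4.79 and 4.6 in mESC and 0.167, 0.277 and 0.223 in K562 (log2 difference 4.41 ± 0.12, adjusted p = 1.94e-12), and BMI1, which can take its place, had 0.857 ± 0.0972 and 0.714 ± 0.0737 (log2 difference 0.26 ± 0.14, adjusted p = 0.104). Among the CBX readers of methylated histone H3, CBX7 had 4.51, 4.37 and 4.31 in mESC and 0.69, 0.537 and 0.634 in K562. CBX6 went the other way, with 0.0208, 0.00732 and 0.0156 in mESC and 4.32, 3.35 and 3.44 in K562, and CBX8 was called in the same direction as CBX6. The lines did not overlap for CBX7 or CBX6. PHC1, a polyhomeotic subunit, had 7.07 ± 0.0274 and 0.612 ± 0.0342, and BCOR, of a variant complex, had 0.301 ± 0.0162 and 5.03 ± 0.148. CBX7 and CBX6 overlap a same-strand gene in an annotation.

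Polycomb repressive complex 2 (PRC2), which methylates histone H3 at lysine 27, had 4 of 12 genes called higher in mESC and 1 in K562 (median log2 difference 0.59). Together these calls made a share near the 40.5% of all pairs. In the core, EZH2 had 5.85 ± 0.0352 and 12.6 ± 0.228 and SUZ12 had 10.4 ± 0.212 and 4.04 ± 0.159, neither called. Among the accessory subunits PHF19 and EPOP were further apart. JARID2 (log2 difference -0.89 to 0.47 over the alternatives) and PHF1 (-0.89 to -0.41) were not called. PHF19 had 0.0947, 0.0881 and 0.0851 in mESC and 9.61, 8.86 and 8.6 in K562 (log2 difference -6.66 ± 0.07, adjusted p = 3.23e-17). EPOP had 9.61, 8.23 and 7.9 in mESC and no count in K562, at least 1620-fold lower. The calls of EED, also a core subunit, and of AEBP2 towards mESC rested on spans that differ by more than 2-fold. With exon length AEBP2 had the opposite sign (-0.56). MTF2, a relative of PHF19, had a log2 difference of 2.04 ± 0.04, and of 1.68 with exon length.

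**Figure D4:**
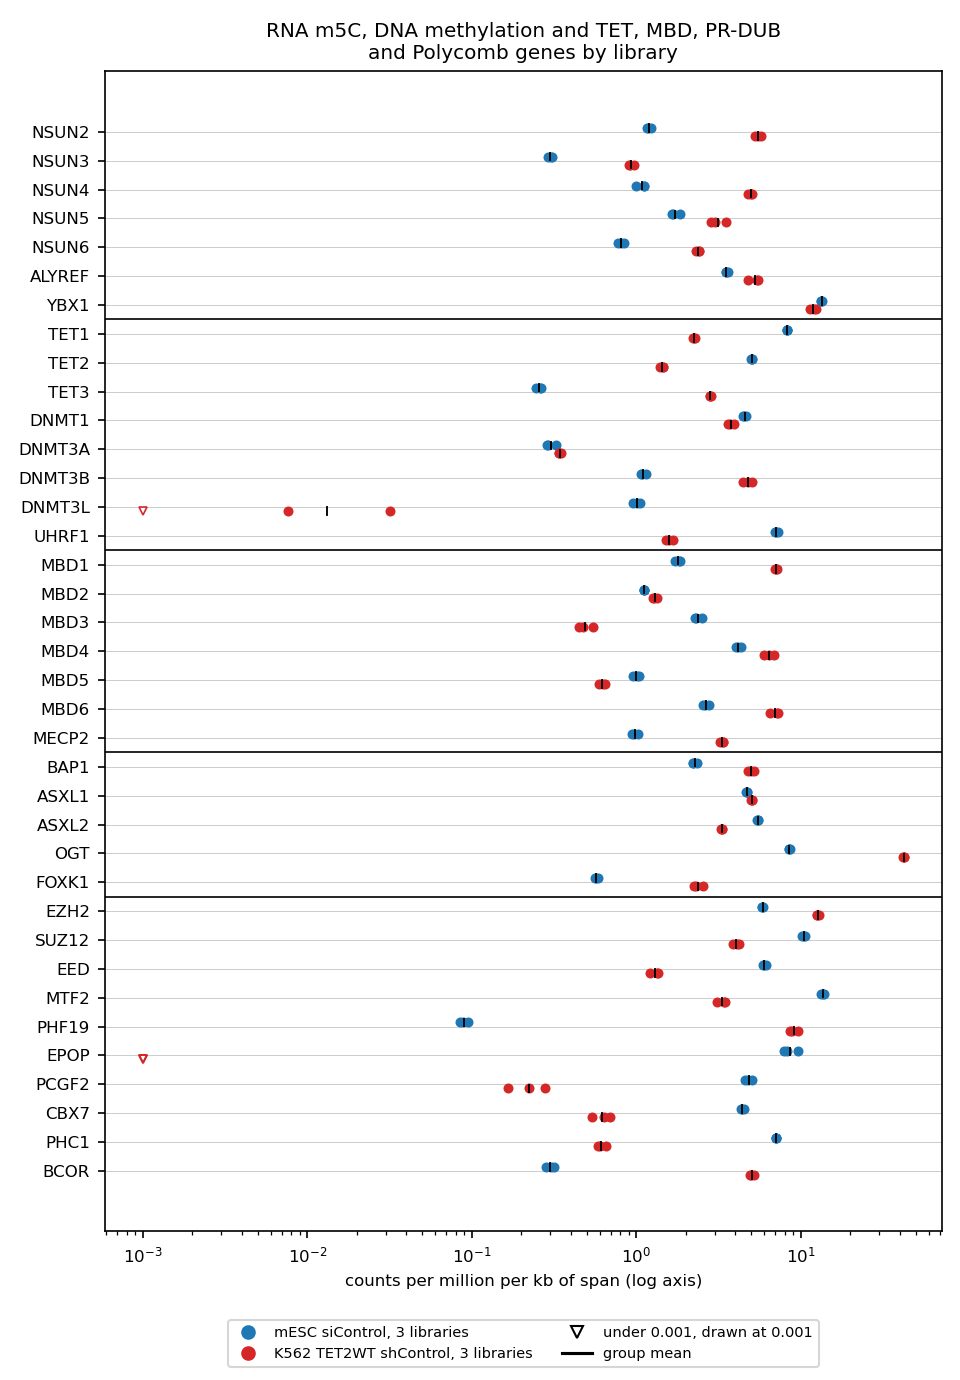
Level of each gene in each of the 6 libraries (points, CPM per kb of span, log axis; open triangles are values under 0.001), with the group mean as a black tick, for m5C, DNA methylation and TET, MBD, PR-DUB and Polycomb genes from top to bottom. TET3, PHF19 and BCOR lie far to the right in K562 and DNMT3L, EPOP, PCGF2, CBX7 and PHC1 in mESC, while ASXL1, YBX1 and DNMT3A nearly coincide.

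H3K9 methylation and HUSH genes, which silence heterochromatin and retroelements, gave 2 of 14 called higher in mESC and 0 in K562 (median log2 difference 0.58). The calls were CBX1, a heterochromatin protein (log2 difference 2.07 ± 0.04, 0.95 with exon length), and ATRX, a chromatin remodeller (6.84 ± 0.11 in mESC and 0.874 ± 0.042 in K562 on spans of 132 and 281 kb, with a log2 difference of 2.97 ± 0.03, or 1.99 with exon length). SETDB1, the H3K9 methyltransferase of retroelements, had 3.43 ± 0.112 and 2.5 ± 0.0723 and was not called. Of 10 paraspeckle and hnRNP genes, 0 were called higher in mESC and 1 in K562 (median -0.12).

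Most lists of general machinery were close between the lines, against 26.6% and 13.9% of all pairs called higher in mESC and K562. Of 17 mitotic genes 0 were called in mESC and 0 in K562 by edgeR at 4-fold (median log2 difference -0.12). DESeq2 changed 0 of these, and 14 had an unadjusted p under 0.05, so most of them differed, but by less than 4-fold. CDK1, the mitotic kinase, had 4.68, 4.48 and 4.44 in mESC and 9.62, 10.1 and 9.84 in K562, and TOP2A, the topoisomerase of mitotic chromosomes, had 15 ± 0.0895 and 10.9 ± 0.323. RNA polymerase II subunits gave 1 and 0 of 12 (median -0.73), SR splicing factors 2 and 0 of 15 (median -0.26) and proteasome subunits 3 and 0 of 31 (median -0.39). Ribosomal protein genes were less close, with 9 and 4 of 38 called (median 0.81), shares near those of all pairs. However, 22 of them overlap another gene and 1 of 8 comparable pairs was called.

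Replication licensing genes gave 1 higher in mESC and 2 in K562 of 21 (median -0.23). CDC45, a helicase subunit, had 1.67, 1.63 and 1.62 in mESC and 13.6, 13.4 and 13.3 in K562 (log2 difference -3.03 ± 0.03). Of 24 G1 and RB pathway genes, against shares of 26.6% and 13.9% over all pairs, 5 were called higher in mESC and 3 in K562 (median -0.14). The cell-cycle inhibitors CDKN1A, CDKN2A and CDKN2B were among the former and CDKN2C, with the factors E2F2 and E2F6, made up the latter. RB1 had 0.633 ± 0.0153 and 0.647 ± 0.0164 and was not called.

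Of 12 NRF2 and glutathione genes 3 were called higher in mESC and 3 in K562 (median log2 difference 0.29), among them GSTP1, a glutathione transferase, with 0.618 ± 0.115 in mESC and 10.4 ± 1.83 in K562. Of 14 ATF4 stress and serine genes 1 was called higher in mESC and 2 in K562 (median -0.90).

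Wnt pathway and TCF-LEF genes, which GSK3 inhibition reaches through beta-catenin, gave 5 of 16 higher in mESC and 1 in K562 (median log2 difference 1.68). The shares over all pairs were 26.6% and 13.9%. A same-strand overlap applied to 13 of the 16, and of the 3 comparable pairs 1 was called (median 0.77). TCF7L1, a repressor of that pathway in stem cells, had 3.57, 3.4 and 3.31 in mESC and 0.0154, 0.0152 and 0.0108 in K562, and CDX1, a caudal factor, had 1.48 ± 0.0516 and 0.00619 ± 0.00544. Imprinted genes gave 12 and 3 of 18 (median 3.40, 2.53 with bounds), with 13 under a level of 1 in both lines. GRB10, an adaptor of growth factor receptors, had 1.04, 0.992 and 0.995 in mESC and 9.63, 9.57 and 9.51 in K562.

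K562 cells carry an amplified BCR-ABL1 fusion, and the genes on both sides of it were compared. Of 10 pairs in the list 3 were called higher in K562 and 0 in mESC (median log2 difference -0.95). BCR had 0.742, 0.727 and 0.727 in mESC and 8.51, 7.74 and 7.86 in K562, and ABL1 had 1.64, 1.65 and 1.65 in mESC and 10.3, 10.3 and 10.3 in K562 (log2 difference -2.65 ± 0.02, adjusted p = 3.01e-18). NUP214, next to ABL1, had 2.02 ± 0.0394 and 18.5 ± 0.141. These were the calls, while the neighbours GNAZ (log2 difference 0.01 ± 0.14) and EXOSC2 (-0.97 ± 0.06) were not called.

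Around the CDKN2A tumour suppressor, K562 RNA was all but missing over a run of neighbouring genes. From IFNB1 to TUSC1 (human chr9:21077104-25678444, GRCh38), 14 consecutive pairs held 23 counts in the 3 K562 libraries, against 621 that genes at the K562 floor would have given over those spans. The longest spans were those of ELAVL2 (136 kb, 22 of the counts) and MTAP (135 kb, with a same-strand overlap in human). Only these and CDKN2A were long enough to be judged singly (30 counts expected at the floor). That floor is a median, and the lowest silent gene had 0.000461 in K562, under the 0.00093 of ELAVL2. KLHL9, a ubiquitin ligase adaptor, had levels of 2.55, 2.47 and 2.53 in mESC and no count in K562, at least 840-fold lower. CDKN2A had 0.404, 0.353 and 0.4 in mESC and 1 count in K562, a ratio of 1850 (counting interval 333 to 73200). CDKN2B, the neighbouring inhibitor, had 0.168, 0.24 and 0.132 and no count, at least 66.9-fold lower. All 3 were above the median mESC floor in every mESC library. Single silent genes ranged from 0.00463 to 0.408 in mESC, a range that holds the levels of CDKN2A and CDKN2B but not of KLHL9. The coding sequences of CDKN2A and of the interferon pairs of this run were not reciprocal best hits, so their pairing rests on the symbol.

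MTAP, the methylthioadenosine phosphorylase, had 1.9, 1.83 and 2.01 in mESC and no count in K562, with a same-strand overlap in human. ELAVL2, a neuronal RNA-binding protein, had 2.05, 2.09 and 2.05 in mESC and 22 counts in K562 (log2 difference 11.10 ± 0.06). On the flanks, FOCAD had 0.59 ± 0.0139 in mESC and 0.695 ± 0.0275 in K562, and CAAP1 had 2.11 ± 0.0918 and 1.66 ± 0.0457. HACD4, between FOCAD and the run, was also low in K562, with 10 counts. It had 0.0627 ± 0.00746 in mESC and 0.00159 ± 0.00197 in K562 (log2 difference 5.12 ± 0.58). Expressed genes were thus found on both sides, but on the IFNB1 side not directly at the edge of the run. MLLT3, farther out, had 0.75 ± 0.00913 in mESC and 0.00488 ± 0.00117 in K562, low but above 0.  The 7 list genes of this region that were tested were all called towards mESC.

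**Figure D5:**
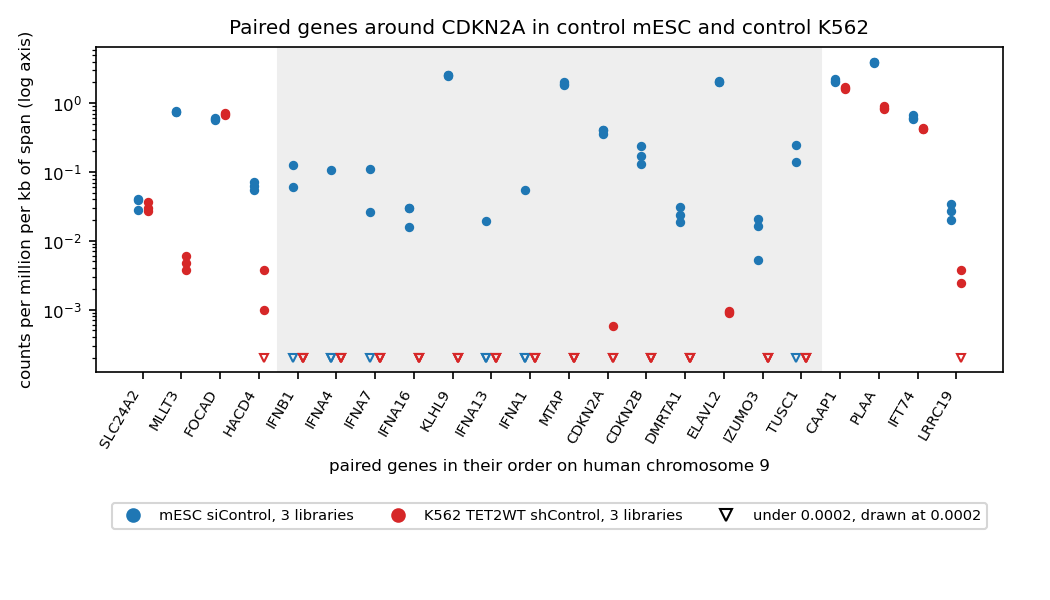
Level in each of the 6 libraries (points, CPM per kb of span, log axis; open triangles are values under 0.0002) of paired genes in their order on human chromosome 9, with the run from IFNB1 to TUSC1 shaded. In the shaded run the K562 points are at or near 0, also where mESC is high at KLHL9, MTAP and ELAVL2. On the flanks FOCAD and CAAP1 are similar in the lines, while HACD4, between FOCAD and the run, is low in K562.

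Of 5 other runs of at least 5 pairs below 1/10 of the floor, 2 were in mESC. On human chromosome 14, 6 pairs from UNC79 to OTUB2 held 5 K562 counts against 985 at the floor. There were 20 keratin and keratin-associated pairs on chromosome 17 that held 4 against 155. On human chromosome 19, 5 pairs from CALR3 to SMIM7 held 3 K562 counts against 279, with mESC levels up to 4.85. In mESC, 5 pairs from SPIRE2 to DEF8 held 0 counts against 1090, with K562 levels up to 3.89. The other mESC run, of 9 protocadherin pairs, held 67 against 2560. Runs with genes well expressed in the other line were thus not limited to the CDKN2A region, and their cause was not tested. Over single pairs, 316 of 10648 that could be judged lay below 1/10 of the floor in K562 and 231 of 14461 in mESC, and 257 and 213 of these had a same-strand overlap. Of them 306 had been called towards mESC and 176 towards K562.

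The largest differences by the naming rule, taken among pairs without overlap, with spans within 3-fold and a level of at least 1, included genes known from each line. TRH, the thyrotropin-releasing hormone, had levels of 11, 10.6 and 9.45 in mESC and no count in K562, at least 1950-fold lower. PRAME, a cancer-testis antigen, had 0.0153, 0.00967 and 0.00311 in mESC and 10.6, 10.2 and 9.76 in K562 (log2 difference -10.06 ± 0.15), but its coding sequences were not reciprocal best hits. DHRS2, a short-chain dehydrogenase, had 0.0201, 0.0252 and 0.0275 in mESC and 11.7, 10.3 and 10.7 in K562. CD69, a lectin of activated leukocytes, had 0.0226 ± 0.0103 and 9.89 ± 0.456. The K562 group did not overlap the mESC group for any of these. TARDBP, an RNA-binding protein that all cells use, had 14.7, 14.7 and 14.6 in mESC and 1 count in K562, below the floor of silent genes there, so its value is uncertain.

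Among the pairs with the highest levels, the lines differed as well. In K562 PIM1, a kinase induced by STAT5, had 3.94, 3.45 and 3.77 in mESC and 78.6, 76.1 and 75.5 in K562 (log2 difference -4.36 ± 0.05, adjusted p = 4.57e-17). TXNIP, the thioredoxin-interacting protein, had 14.5, 13.9 and 13.7 in mESC and 88.6, 85.1 and 85.2 in K562, and DDIT4, a stress-induced inhibitor of mTOR, had 1.88 ± 0.185 and 58.9 ± 1.86. In mESC the nucleolar protein NPM1 had 46.8, 47.2 and 47.4 against 7.58, 7.77 and 7.9 in K562 (log2 difference 2.60 ± 0.03, 1.75 with no length correction), and the chaperone HSP90AB1 had 87.1 ± 2.82 and 25.9 ± 1.08 and was not called (log2 difference 1.75), although it was with total-count scaling (2.01) and with the TET2KO libraries (2.10).

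Mitochondrial RNA moved apart from the nuclear genes. It took 1.169, 1.204 and 1.213% of gene counts in the mESC libraries and 0.02382, 0.02203 and 0.02285% in the K562 libraries. The groups did not overlap (difference of means 1.17 percentage points, exact two-sided permutation p = 0.1, the smallest that 3 against 3 allows, and 0.1 after Benjamini-Hochberg adjustment over 4 such measures). The mESC Pspc1 WT library of the series had 0.0969%, so that share was not common to all mESC libraries. MT-CO1, a subunit of cytochrome c oxidase, had a level of 568 ± 7.3 in mESC and 57 ± 3.77 in K562, with no overlap between the groups. Of 12 mitochondrial genes 4 were called higher in mESC and 6 in K562 (median log2 difference -1.10), so single genes did not all follow the total, and several overlap a neighbour. Without the mitochondrial pairs 4132 pairs were called towards mESC and 2152 towards K562.

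Paired genes took 78.9% ± 0.367 of gene counts in mESC and 81.8% ± 0.0379 in K562, the 10 highest pairs took 2.31% ± 0.0131 and 2.48% ± 0.0115, and records outside genes made up 19.9% ± 0.345 and 13.2% ± 0.1 (exact permutation p = 0.1 for each, and 0.1 after adjustment). The single Pspc1 WT library of mESC, which did not enter these tests, had 88.23% of gene counts in paired genes and 10.66% of records outside genes, so neither share was common to the mESC libraries. With the TET2KO shControl libraries in place of TET2WT, the difference in the paired share changed sign (0.117 percentage points, exact permutation p = 0.7). Long genes stood lower against short ones in K562: the median log2 level of genes of at least 200 kb minus that of genes under 20 kb was -1.131, -1.066 and -1.052 in mESC and -1.737, -1.696 and -1.67 in K562 (exact permutation p = 0.1). These levels carried a pseudocount of 0.1, and the K562 medians of the long genes (-3.06 to -3.03) lay close to its log2. The difference between the lines, 0.62, was 1.54 with exon length and 1.99 with no length correction, so its size depended on the length used. In the 1066 pairs of at least 200 kb, 40.3% were called towards mESC and 10.4% towards K562, with a median log2 difference of 1.61. Among pairs at a level of at least 1 in either line the median was -0.72 for genes under 20 kb (3016 pairs), -0.35 for those between (4527 pairs) and -0.39 for those of at least 200 kb (321 pairs), the last being 0.06 over the 51 without overlap.

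Among the called genes named above, a same-strand overlap in an annotation also applies to LIFR, FGFR1, ITGA2B, THBS1, PTPRC, XK, COL1A2, COL3A1, DDX4, BCR, NUP214, TCF7L1, ELAVL2 and MLLT3. CBX1, ATRX, MBD3, UHRF1, EED and AEBP2 have such an overlap as well. Annotated spans that differ by more than 2-fold also apply to NODAL, CD36, CDKN2C, CBX8 and NPM1. The counts of these genes and their levels per kb are less certain than those of comparable pairs.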

How the data were processed

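caRNA was sequenced after rRNA depletion with ERCC RNA added. The authors trimmed reads (Trimmomatic 0.39), aligned them with HISAT2 2.2.1 and deposited raw HTSeq 0.12.4 read counts per gene against GENCODE v29 and M19; the counted feature and strand setting are not given in the sources used here. Spans, overlaps and symbols came from GENCODE v44 and M21, which held 99.93% of mouse and 99.2% of human identifiers. HTSeq summary rows did not enter library sizes. Records outside genes were 19.9% in mESC and 13.2% in K562, and ambiguous ones 2.43 to 2.52% and 5.05 to 5.24%. Counts were fitted in R 4.3.3 with edgeR 4.0.16 (quasi-likelihood, TMM, an offset for span and library), over the 6 libraries, on pairs with at least 1 count, without replicate block or other covariates. In simulated data 200 well-counted pairs of 15541 were changed by 5.7-fold or 8-fold, above the threshold, and the others had equal levels in both groups. There 100% were recovered and 0 unchanged pairs called. That checks the fit only, since unequal floors and errors of span or overlap were not simulated. Composition shares were compared by exact permutation tests and coding sequences with BLAST 2.17.0. Intervals and floors (3 counts) cover counting error only.

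The members and 36 gene lists were chosen with earlier results of these data known, and some genes and 1 list are not reported here. Named genes were list members, the 10 largest differences in each direction (spans within 3-fold, no overlap, level of at least 1), the 10 highest pairs of each line without overlap, and TET2, MBD6 and NSUN2. Replicates differed by more than sampling noise (chi-square per degree of freedom 3.97 to 12.2). Alternatives covered scaling, DESeq2 1.42.0, filters, length, overlap, the fold threshold, a replicate block, single libraries left out, and siNsun2 or TET2KO libraries in place of the controls.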

Additional observations from a re-analysis of the deposited data

How the results depend on the processing

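The calls over all pairs (4138 towards mESC, 2157 towards K562) stayed within 1.5-fold with DESeq2 size factors (4063 and 2206), total counts (4613 and 1850), DESeq2 (4054 and 2149), filterByExpr (3896 and 2108), exon length (4142 and 2450), no length correction (4148 and 2290), spans within 2-fold (3534 and 1814), siNsun2 (5055 and 2105) and TET2KO libraries (4649 and 2246). They moved further without same-strand overlaps, where fewer pairs are tested (2308 and 1137), with a 2-fold threshold (3950 towards K562) or none (7187 and 6001), and, chosen after seeing the data, with a level of at least 1 (963 towards mESC). Leaving out 1 library at a time gave 3964 to 4144 and 2125 to 2233. Spearman's rho (0.637) was 0.643 with exon length, 0.714 with no length correction, 0.717 without overlaps, 0.606 with filterByExpr, 0.631 with siNsun2 and 0.636 with TET2KO libraries, and Pearson's r was 0.648 and 0.661 with pseudocounts of 0.01 and 0.1. The difference in paired share changed sign with TET2KO libraries (0.117 percentage points, exact permutation p = 0.7). The cause was not tested.

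Of 645 named pairs 474 kept their call or lack of one under every alternative, and 81 of 310 called pairs lost the call in at least 1. Among pairs called in either fit, log2 differences changed sign with exon length for AEBP2 (-0.56), CRP (3.98), RPS14 (0.86) and TWIST1 (-2.46). With no length correction they did so for CRP (5.03), POLR2F (-0.35), RPL27A (-0.22), RPL28 (-0.49), RPS14 (0.05), SRSF9 (-2.03) and TWIST1 (-2.48). With TET2KO libraries they did so for ARHGAP15 (-6.20), CEBPE (-2.68), CRP (10.04), MAEL (2.77), PAX4 (4.40) and PTPRC (4.22). Pairs called in neither fit also changed sign, EXOSC2 (0.31 with exon length) among them, and are not listed.

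Replicate numbers are shared by the groups but join different species and cultures, and same-numbered libraries correlated at 0.126, 0.0518 and 0.0531 in their deviations, so they do not pair. With a replicate block 4029 and 2137 pairs were called.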

Other observations

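VEGFA, the vascular growth factor, had levels of 3.38, 3.31 and 3.23 in mESC and 45.8, 43.3 and 44.2 in K562 (log2 difference -3.75 ± 0.03), and MAT2A, the methionine adenosyltransferase, had 25.4 ± 0.502 and 82 ± 2.8 (SD, n = 3). Among the largest differences towards mESC, BEX3 had 5.53, 4.46 and 4.34 and DSEL had 1.22, 1.24 and 1.01, with no count in K562, at least 491-fold and 681-fold lower. Towards K562, RTL8A, a retrotransposon-derived gene, had 6.56, 7.52 and 7.58 in K562 and no count in mESC, and PRSS21, a testis protease, had 0.0122 ± 0.0109 in mESC and 4.84 ± 0.244 in K562. HNRNPA2B1, among the highest mESC pairs, had 60.4 ± 0.495 in mESC and 23.9 ± 0.791 in K562.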
